A study of Mus musculus with 32 samples.

Results

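The genes of T cells, natural killer (NK) cells, B cells and plasma cells were followed in whole mouse liver under a steatohepatitis diet, an incretin and glucagon receptor agonist, and partial hepatectomy. The set held 33 genes that mark these lymphocytes or carry out their functions. They were found on the array by gene name among the spots that were not controls, which gave 42 of its 55681 probes. A gene entered the tests if a probe for it was well above the local background on each of the 4 arrays of 1 group or more, and 28 of the 33 genes did so, among 21708 genes tested in all. Cd8a, Klrk1, Ncr1, Blk and Pax5 did not, and were well above background on 7, 2, 7, 1 and 4 of the 32 arrays.

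T cells recognise antigen through a receptor whose signalling chains are the CD3 proteins, and NK cells read the state of other cells through inhibitory and activating receptors. Both kill through granules that hold granzymes and perforin. B cells carry an antibody as their antigen receptor and, as plasma cells, secrete it. The liver is rich in resident NK and T cells, and its B cells and plasma cells are known to increase in several forms of chronic liver injury.

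Each array held the RNA of 1 liver from a male C57/BL6 mouse, and 8 groups had 4 livers each. Livers without surgery came from mice on standard diet (STD), on a diet lacking methionine and choline for 3 weeks (MCD), on standard diet with a dual agonist of the GLP-1 receptor (GLP1R) and the glucagon receptor (GCGR) for 2 weeks (STD+AG), or on the deficient diet with the agonist started after the first week (MCD+AG). The agonist was given every other day, with a stated dose of 4.4 mg/kg/day. The other 4 groups had the same diets and treatments and were examined 2 weeks after removal of 70% of the liver, with diet and agonist continued after surgery (STD PH, MCD PH, STD+AG PH and MCD+AG PH). The deficient diet is a model that gives steatosis and inflammation with weight loss rather than obesity. No group without the agonist is labelled as vehicle-injected, and no group as sham-operated.

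A level below is the log2 of the background-corrected signal minus the log2 of that array's 75th percentile, so that 0 is the brightness of the 75th percentile probe. A change is a difference of 2 group means of such levels from limma, with its standard error (SE). A gene rose or fell where its Benjamini-Hochberg adjusted p over the 21708 genes was below 0.05, and p below always means this adjusted value. Levels of different genes rest on different probes and were not compared.

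Each array slide held 2 groups of 4. The STD and MCD livers shared a slide, as did STD+AG and MCD+AG, STD PH and STD+AG PH, and MCD PH and MCD+AG PH, and on each slide a group filled 1 row. The effect of the diet without surgery and that of the agonist after surgery were therefore measured within a slide. They cannot be told apart from a difference between the rows of that slide. The effect of the agonist without surgery and that of the diet after surgery cannot be told apart from a difference between slides. The slides of operated and unoperated livers were scanned on different scanners and days, and operated mice had been on diet and agonist for longer, so an effect of surgery cannot be told apart from these either.

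Many of the transcripts were dim, while others, Cd4 and Sdc1 among them, lay above the 75th percentile in the levels given below. Of the 33 genes, 15 were well above background on all 32 arrays and 6 on fewer than 16. Between 43.1% and 69.2% of probes per array were well above background, with a median of 52.6%. Only 1 array, STD replicate 2, exceeded 60.6%. The brightness of the arrays differed by group, and the log2 75th percentile averaged 8.17 in STD and 8.99 in MCD, 8.33 in STD+AG and 8.25 in MCD+AG, and between 9.20 and 9.63 in the operated groups. The part of array brightness in the results was not tested, but the changes were recomputed with another background correction, normexp, and where a call of a named gene ended under it the normexp value stands beside that call.

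In the submitters' processed table, 16 of 32 columns held values that matched best an array of another group, MCD against STD+AG and MCD PH against STD+AG PH. The array files and their labels were followed here. As a check of the diet labels, Scd1, a fatty acid desaturase, fell (changes -4.44 to -2.43) and Mat2a, a methionine adenosyltransferase, rose (1.48 to 2.06) on the deficient diet in all 4 diet comparisons. Results of the table as deposited stand with the alternatives at the end, and under it the diet's change of Igj without surgery was -1.56 in place of 2.08. A change in bulk RNA does not tell apart a change in the number of lymphocytes from a change in RNA per lymphocyte.

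In every comparison some of the 28 tested genes had a change above 0 and others below. The number above 0 ranged from 5, for the agonist on the deficient diet after surgery, to 20, for surgery on the deficient diet. Whether the genes moved together was not tested. Without surgery and agonist, the deficient diet raised 7 and lowered 2 of the 28 tested genes, where 25.8% of all tested genes were called, 10.8% higher and 15% lower. Their median change was 0.27 against -0.13 over all genes, and for 8 of the 28 the livers of the groups did not overlap, as for 27.9% of all genes. After normexp 3 of these 9 calls held, the rise of Igj and the falls of Cd3e and Cd4, and in all 1 gene was called higher and 5 lower. Scaled to the array median, the diet raised 11 and lowered 2 of the 28, and among all genes 4490 were called higher and 1185 lower, against 2341 and 3267 here, with a median over all genes of 0.24. With the agonist, the same diet raised 1 and lowered 1, where 15.1% of all genes were called (8.18% higher, 6.95% lower). Its livers did not overlap for 4 of the 28, against 14.2% of all genes.

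Without surgery, the agonist on standard diet raised 4 and lowered 1 of the 28, where 6.52% of all genes were called (3.34% higher, 3.19% lower), and 5 genes did not overlap, against 11.3%. On the deficient diet it raised 1 and lowered 4, where 13.3% were called (8.97% higher, 4.38% lower), and 7 did not overlap, against 18.3%. The lymphocyte genes' median change there was -0.11 and that of all genes 0.15. The test of whether the agonist's change differed between the diets called 7 of the 28, 6 of them lower and 1 higher on the deficient diet, where 11% of all genes were called (4.93% lower, 6.11% higher).

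After hepatectomy the diet raised 3 and lowered 0 of the 28 by limma, with 3 higher and 2 lower at an unadjusted p under 0.05, where 11.4% of all genes were called (5.61% higher, 5.84% lower). Only 2 did not overlap, against 16.9%. With the agonist the diet lowered 2 and raised 0 by limma (0 higher and 4 lower at an unadjusted p under 0.05), where 8.29% were called (3.89% lower, 4.4% higher), and 3 did not overlap, against 20.3%.

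The agonist changed 0 of the 28 on standard diet after surgery by limma, and 0 at an unadjusted p under 0.05, where 0.00921% of all genes were called. The livers overlapped for all 28 there, while 2.83% of all genes did not overlap. On the deficient diet after surgery it lowered 3, where 0.396% of all genes were called and 0.221% called lower. For 10 of the 28 the livers did not overlap, against 10.2% of all genes, and the median change was -0.46 against 0.04. Of the 28 changes 5 were above 0, and at an unadjusted p under 0.05 there were 0 higher and 8 lower. The difference between those agonist effects was called for 0 of the 28 by limma, with 4 at an unadjusted p under 0.05, and for 0.00461% of all genes.

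Operated and unoperated livers on standard diet differed in 6 genes, 5 higher and 1 lower after surgery, where 13.8% of all genes were called (6.24% higher, 7.53% lower), and 4 did not overlap, against 17.6%. On the deficient diet 1 was higher and 1 lower (9.48% called, 6.45% higher, 3.03% lower; 6 without overlap, against 19%). On standard diet with the agonist 1 was higher and 1 lower (7.32% called, 2.9% higher, 4.42% lower; 6 without overlap, against 18.2%). On the deficient diet with the agonist 2 were lower and 0 higher by limma, with 1 higher at an unadjusted p under 0.05 (10.1% called, 6.45% lower, 3.69% higher; 3 without overlap, against 16.3%).

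The split of the calls moved when arrays were scaled to their median in place of the 75th percentile. The agonist on the deficient diet without surgery then raised 0 and lowered 7 genes, and on standard diet raised 5 and lowered 0. The diet under the agonist then raised 0 and lowered 3, and surgery on the deficient diet with the agonist raised 1 and lowered 0. Under quantile normalization the diet under the agonist raised 1 and lowered 2, surgery on standard diet raised 6 and lowered 0, and surgery on the deficient diet raised 3 and lowered 1. No called change of a single lymphocyte gene turned its direction under either scaling.

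The calls over all genes moved with that scaling too. The share of them that were higher went from 54.1% to 35.8% for the diet under the agonist, from 51.1% to 76.7% for the agonist on standard diet, from 67.2% to 16.4% for it on the deficient diet and from 55.3% to 9.37% for the interaction without surgery. After surgery it went from 49% to 62.7% for the diet and from 44.2% to 31.2% for the agonist on the deficient diet. For surgery it went from 45.3% to 67.6% on standard diet, from 68.1% to 51.5% on the deficient diet and from 36.4% to 63% on that diet with the agonist.

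Normexp ended many of the calls among the 28. Without surgery it kept 0 of 2 for the diet under the agonist, 1 of 5 for the agonist on standard diet (Gzma), 3 of 5 for it on the deficient diet (Cd3e, Cd3g and Igj) and 0 of 7 for the interaction. After surgery it kept 2 of 3 for the diet (Il2rb and Klrb1c), 2 of 2 for the diet with the agonist (Tnfrsf17 and Igj) and 2 of 3 for the agonist on the deficient diet (Il2rb and Igj). For surgery it kept 1 of 6 on standard diet (Gzma), 2 of 2 on the deficient diet (Cd3e and Cd3g), and with the agonist 1 of 2 on standard diet (Igj) and 1 of 2 on the deficient diet (Tnfrsf17). Normexp also added calls for surgery with the agonist. In all, 1 was higher and 3 lower on standard diet, and 0 higher and 10 lower on the deficient diet.

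**Figure D1:**
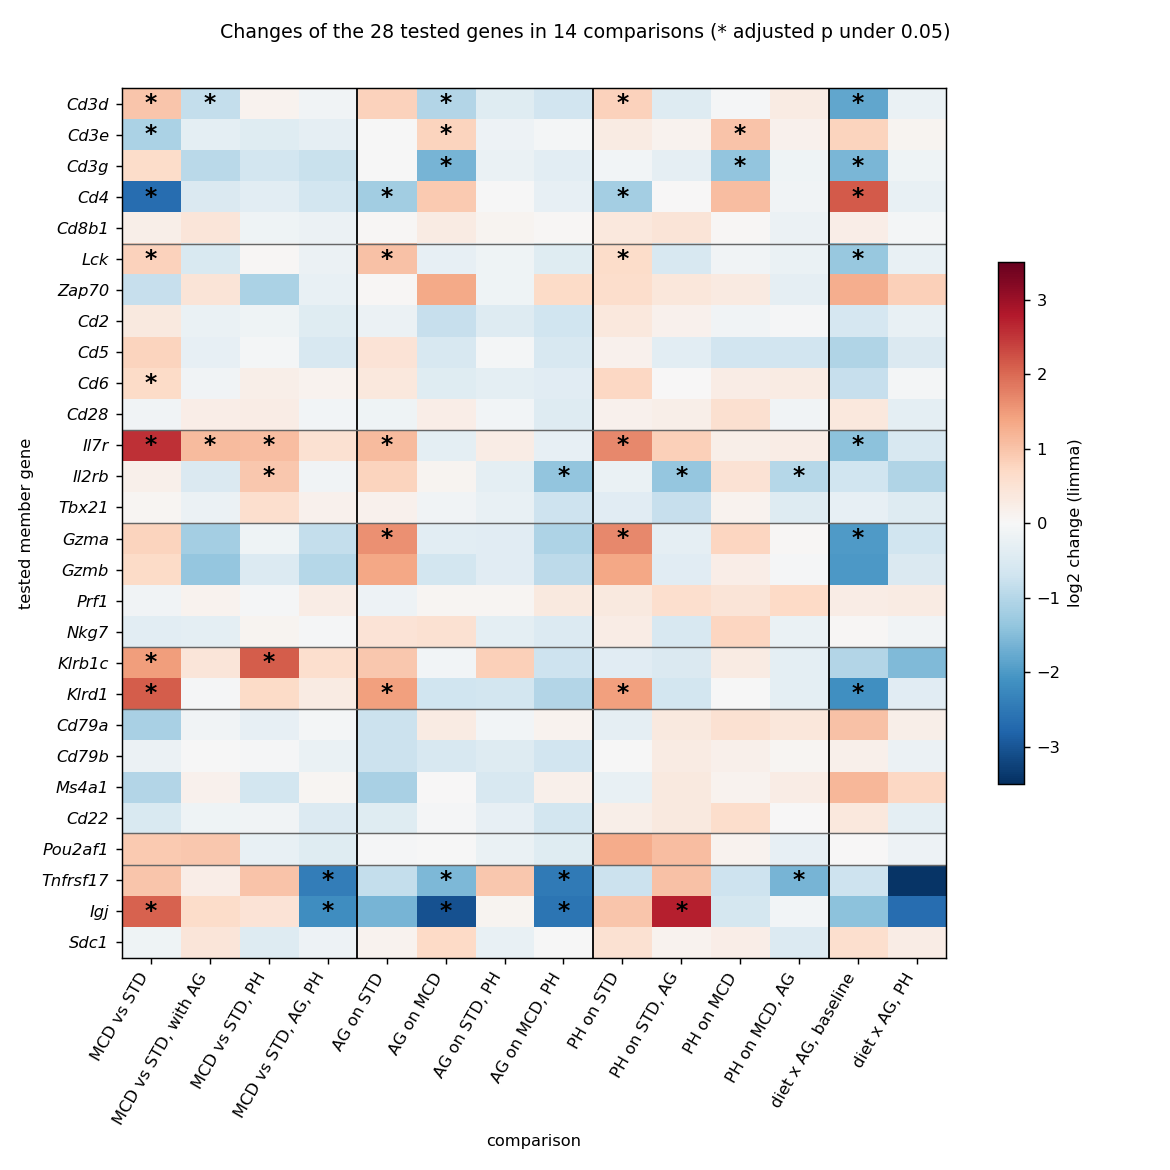
Heat map of the log2 change of the 28 tested lymphocyte genes (rows, grouped by role) in the 12 comparisons of groups and the 2 interactions (columns), with the colour scale ending at ±3.5 and a star at an adjusted p below 0.05. The stars of the diet comparison without surgery stand in 9 rows, and among the 12 comparisons of groups Igj carries the deepest blue (lower), -3.06, for the agonist on the deficient diet without surgery.

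Igj, the joining chain that links the antibody subunits of IgA and IgM in plasma cells, gave the largest change of the 28 genes in any comparison of 2 groups. Igj is read by a probe at chr5:88949919-88949978 (mm9) and is listed by RefSeq as Jchain. Tnfrsf17, the plasma cell survival receptor BCMA, is read at chr16:11320045-11320104 (mm9). Whether these probes lie in a coding exon or an untranslated region was not analysed here. The 250 bases before the start of each gene are shown because both genes fell with the agonist on the deficient diet. They are from RefSeq on GRCm38.p6, at chr5:88527898-88528147 on the minus strand for Igj and at chr16:11313559-11313808 on the plus strand for Tnfrsf17, each written 5′ to 3′ towards the start.
Igj: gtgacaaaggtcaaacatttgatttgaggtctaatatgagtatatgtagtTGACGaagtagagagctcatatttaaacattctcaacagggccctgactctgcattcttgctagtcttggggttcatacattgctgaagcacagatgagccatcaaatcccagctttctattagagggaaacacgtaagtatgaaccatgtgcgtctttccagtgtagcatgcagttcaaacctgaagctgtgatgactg
Tnfrsf17: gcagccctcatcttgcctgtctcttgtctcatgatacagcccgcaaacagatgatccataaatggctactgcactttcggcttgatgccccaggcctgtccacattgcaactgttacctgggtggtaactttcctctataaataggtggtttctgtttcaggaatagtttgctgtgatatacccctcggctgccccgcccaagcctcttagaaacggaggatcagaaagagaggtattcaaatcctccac

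Capitals mark the match to TGACG, a half-site of the cAMP response element, 200 to 196 bases before the Igj start. The motifs searched, on both strands and allowing overlaps, were TGACG, the octamer ATGCAAAT, the ETS core GGAAG, the RUNX core TGTGGT and the NF-kB pattern GGGNNNNNCC. The Tnfrsf17 window held none of them, and the Igj window held no other. TGACG is in 17.8% of the 32851 windows of this length in the RefSeq table and in 5 of the 27 windows that matched 23 of the 33 genes. The octamer, a hallmark of antibody gene promoters, is in 1.6% of all windows and in 0 of the 27. The ETS core is in 64.1% of all windows and 17 of the 27, the RUNX core in 14% and 10, and the NF-kB pattern in 45.8% and 15. A match describes letters only.

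Without surgery, Igj was raised by the deficient diet and was lower on that diet with the agonist than without it. In STD replicates 1 to 4, Igj stood at 0.03, 1.89, -0.14 and 0.27, and in MCD at 2.79, 1.52, 3.17 and 2.88. All MCD livers but replicate 2 lay above all STD livers, and STD replicate 2, the array with the most probes above background, lay above MCD replicate 2. Igj rose by 2.08 ± 0.55 (SE; 4.22-fold, n = 4 and 4; limma adjusted p = 0.00631), and by 2.05 with normexp.

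With the agonist, Igj on the deficient diet was at 0.39, -1.25, -1.01 and -0.00 in MCD+AG replicates 1 to 4. No MCD+AG liver reached any MCD liver. The difference was -3.06 ± 0.55, or 8.34-fold lower (limma adjusted p = 0.00125), and it stayed between -3.42 and -2.80 when any 1 of the 8 livers was left out. On standard diet the agonist group STD+AG stood at -0.33, -1.48, -1.07 and -1.59, entirely below the STD livers, but the change of -1.63 ± 0.55 missed the threshold (limma adjusted p = 0.0687). The agonist's changes on the 2 diets differed by -1.43 ± 0.77, which was not called (limma adjusted p = 0.234).

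After hepatectomy, Igj averaged 1.49 to 1.98 in 3 groups and -0.57 in the group with both the deficient diet and the agonist. In STD PH it was at -0.02, 3.05, 2.03 and 0.92, in STD+AG PH at 2.08, 1.85, 1.99 and 0.44, and in MCD PH at 2.16, 1.97, 2.11 and 1.69. In MCD+AG PH it was at 0.45, -1.14, -1.34 and -0.26. The MCD+AG PH livers lay below all MCD PH livers, and of the STD+AG PH livers only replicate 4 came down to their range.

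Within the slide of the deficient diet, Igj fell by 2.55 (SE 0.55; 5.88-fold; limma adjusted p = 0.0314) with the agonist. The call was lost without MCD PH replicate 1, 2 or 3 or MCD+AG PH replicate 2 or 3, with changes from -2.89 to -2.30 and adjusted p up to 0.115 over the 8 omissions. Against STD+AG PH, Igj in MCD+AG PH was lower by -2.16 ± 0.55 (limma adjusted p = 0.012), a call lost without MCD+AG PH replicate 2 or 3 (adjusted p up to 0.0563). Between STD+AG and STD+AG PH, whose livers did not overlap, Igj rose by 2.71 ± 0.55 (6.54-fold; limma adjusted p = 0.00415). Without STD+AG PH replicate 4, which stood lowest for many lymphocyte genes, that rise was 3.09. The interaction after surgery, -2.65 ± 0.77 for Igj, was not called (limma adjusted p = 0.754).

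Transcripts of the exocrine pancreas were high in the same MCD+AG PH livers. The centred mean of the 3 tested of 4 acinar genes was 1.17 to 4.82 in MCD+AG PH, against -0.07 to 2.27 in MCD PH, -0.74 to 0.14 in STD+AG PH and -1.16 to 0.28 in MCD+AG. Cpa1, Prss2 and Cela1, which encode digestive enzymes, all rose against STD+AG PH (changes 4.4, 3.42 and 1.99) and against MCD+AG (5.26, 2.42 and 2.58). Against MCD PH 0 of the 3 were called by limma (3.36, 2.21 and 0.54), with Cpa1 and Prss2 at an unadjusted p of 0.0011 and 0.00463. The part of these transcripts in the lower Igj, Tnfrsf17 and Il2rb of MCD+AG PH was not tested.

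**Figure D2:**
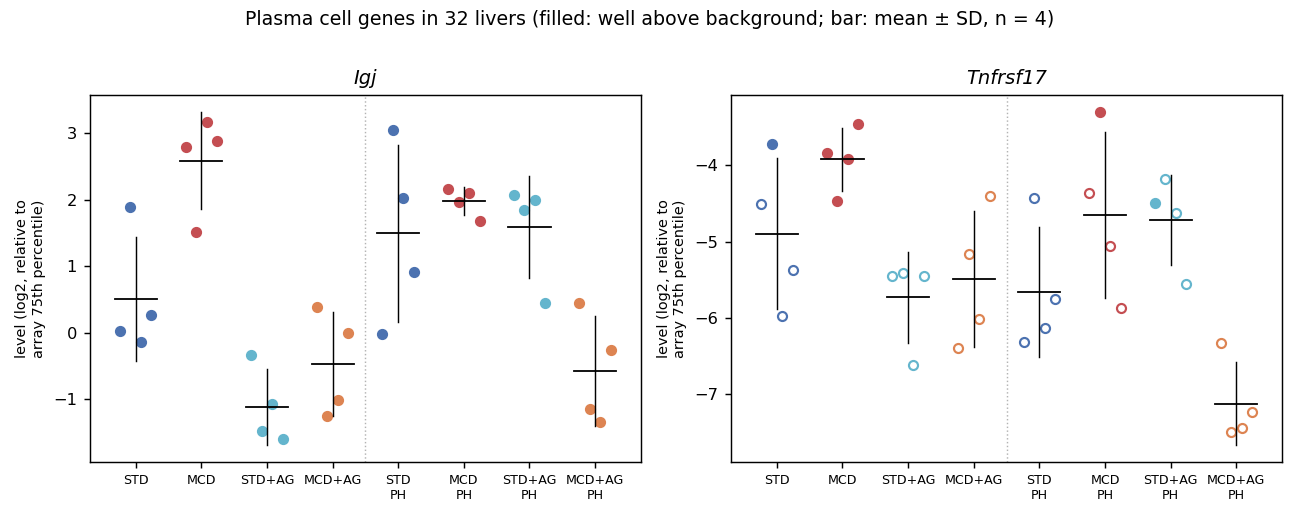
Levels of Igj and Tnfrsf17 (log2 signal relative to the array's 75th percentile) in the 4 livers of each of the 8 groups, with bars at the mean ± SD. Filled points were well above background and open points were not, and the operated groups stand right of the dotted line. Igj averaged 2.59 in MCD and -0.47 in MCD+AG, and 1.98 in MCD PH and -0.57 in MCD+AG PH. All Tnfrsf17 points of MCD are filled.

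Tnfrsf17 was at the edge of detection, being well above background on 7 of 32 arrays, 4 of which were all the MCD livers. It entered the tests through that group alone, so a lower signal elsewhere was partly fixed by the filter. In MCD, Tnfrsf17 was at -3.84, -4.47, -3.92 and -3.46, and in MCD+AG, where no liver was well above background, at -6.39, -5.16, -6.02 and -4.40. For a change between such groups a bound is given, the bright group's mean over the mean of the other group's livers. Each liver of the other group counts at its own signal or at the dimmest signal still above background on its array, whichever is higher. The bound holds within this background correction and scaling only. Tnfrsf17 fell by at least 1.57-fold with the agonist on the deficient diet (measured change -1.57 ± 0.52, limma adjusted p = 0.0421; -0.16 with normexp, not called). That call was lost without MCD replicate 1, 3 or 4 or MCD+AG replicate 1 or 3, with changes from -1.93 to -1.27 and adjusted p up to 0.131.

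Tnfrsf17 was lowest of all in MCD+AG PH, at -6.33, -7.50, -7.44 and -7.23, below every MCD PH and every STD+AG PH liver. Only 1 of the 4 MCD PH, 1 of the 4 STD+AG PH and 0 of the 4 MCD+AG PH livers were well above background, so these differences rest mostly on signal that was not, and no fold is given. The signal was called lower than in MCD PH (measured change -2.48 ± 0.52, limma adjusted p = 0.0312; -0.83 after normexp, not called) and than in STD+AG PH (-2.41 ± 0.52, limma adjusted p = 0.00351; -0.80 after normexp, still called). The second call stood whichever liver was left out, and the first was lost without MCD PH replicate 1 or 2 or MCD+AG PH replicate 2 or 3 (changes -2.88 to -2.03, adjusted p up to 0.122). Between MCD+AG and MCD+AG PH the signal of Tnfrsf17 was called lower (limma adjusted p = 0.0423), and no liver of either group was well above background. That call was lost under median scaling, under quantile normalization and in a fit of only the groups compared. It was also lost without MCD+AG replicate 2 or 4 or MCD+AG PH replicate 2, 3 or 4 (changes -1.93 to -1.27, adjusted p up to 0.128). The diet's effect on Tnfrsf17 without surgery, 0.97 ± 0.52, missed the threshold (limma adjusted p = 0.164).

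Sdc1, syndecan-1, is a surface proteoglycan of plasma cells that hepatocytes and other epithelial cells also make. Every array read it well above background, its group means lay between 4.37 and 5.08, and it was called in none of the 14 tests. Where Igj and Tnfrsf17 fell, the changes of Sdc1 lay between -0.18 and 0.71.

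The genes of the CD3 complex went apart from each other. Cd3d and Cd3g, which lie side by side on chromosome 9, are read at chr9:44794171-44794402 and chr9:44777868-44777927, and Cd3e, the chain beside them, at chr9:44806828-44806887 (all mm9). The windows before the Cd3d and Cd3g starts are shown because these neighbours are transcribed away from each other. They are from GRCm38.p6, at chr9:44981536-44981785 (plus strand) and chr9:44980432-44980681 (minus strand).
Cd3d: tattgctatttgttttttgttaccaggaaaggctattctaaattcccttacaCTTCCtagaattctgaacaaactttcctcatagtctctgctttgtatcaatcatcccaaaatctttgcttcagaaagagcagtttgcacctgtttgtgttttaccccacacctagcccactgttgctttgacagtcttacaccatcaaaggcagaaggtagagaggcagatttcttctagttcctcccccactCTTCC
Cd3g: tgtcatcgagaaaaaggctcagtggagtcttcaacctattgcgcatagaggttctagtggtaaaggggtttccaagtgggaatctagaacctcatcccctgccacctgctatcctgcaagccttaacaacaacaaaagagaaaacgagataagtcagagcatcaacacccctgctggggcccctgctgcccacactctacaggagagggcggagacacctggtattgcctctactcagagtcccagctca

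Capitals in the Cd3d window mark the ETS core GGAAG as its reverse complement, at 198 to 194 and 5 to 1 bases before the start. The Cd3g window held none of the 5 motifs.

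Cd3d was higher on the deficient diet in mice without the agonist and lower on it in mice with the agonist. Its levels in STD were -2.52, -1.33, -2.44 and -2.20, and in MCD -1.05, -1.60, -1.06 and -0.85. STD replicate 2 reached into the MCD range. The change was 0.98 ± 0.26 (limma adjusted p = 0.00621), and 0.28 without a call after normexp.

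With the agonist, Cd3d was at -1.41, -1.61, -1.22 and -1.02 in STD+AG and at -1.79, -2.05, -1.99 and -2.77 in MCD+AG, with no overlap. Cd3d fell by 0.84 (SE 0.26; limma adjusted p = 0.0261), a call lost without STD+AG replicate 3 or 4 or MCD+AG replicate 4 (changes -0.96 to -0.63, adjusted p up to 0.114) and after normexp (-0.59). Read as the agonist's effect on the deficient diet, the change of Cd3d was -1.01 ± 0.26 (limma adjusted p = 0.0112; -0.26 after normexp, not called), again without overlap. The difference between the agonist's effects on the 2 diets was -1.82 ± 0.37 (limma adjusted p = 0.00258). It was -0.88 after normexp, without a call. Cd3d was also higher in STD PH than in STD, by 0.80 ± 0.26 (limma adjusted p = 0.0377; 0.10 after normexp, not called), and 5 of 8 omissions of a liver, those of STD replicates 1, 3 and 4 and STD PH replicates 1 and 2, ended that call.

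Cd3g showed the agonist difference on the deficient diet but not the diet difference. In MCD it was at -1.81, -2.66, -1.56 and -1.06, and in MCD+AG at -2.86, -4.17, -3.44 and -3.08, where replicates 2 and 4 were not well above background. The groups did not overlap, and Cd3g fell by 1.62 (SE 0.36; limma adjusted p = 0.0048; -0.53 after normexp, still called). The call stood without any 1 liver. The diet change without agonist, 0.65, was not called (limma adjusted p = 0.185).

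Cd3g was also lower in operated than in unoperated livers on the deficient diet. MCD PH stood at -4.10, -2.72, -2.96 and -2.82, below every MCD liver, and the change was -1.38 ± 0.36 (limma adjusted p = 0.0139). Without MCD replicate 4 or MCD PH replicate 1 the Cd3g call was lost (changes -1.68 to -1.06, adjusted p up to 0.0714). The interaction without surgery for Cd3g was -1.60 ± 0.51 (limma adjusted p = 0.04; -0.57 after normexp, not called), and 11 of its 16 omissions of a liver ended the call, over changes from -1.90 to -1.34 (adjusted p up to 0.0958).

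Cd3e went the other way. In STD, Cd3e was at 1.64, 1.78, 1.25 and 1.71, and in MCD at 0.53, 0.24, 0.76 and 0.39, so that every MCD liver was below every STD liver. Cd3e fell by 1.12 (SE 0.19; 2.17-fold; limma adjusted p = 0.000145) and by 1.39 after normexp. MCD was also below the agonist and operated groups of its diet. Cd3e was at 1.06, 1.39, 1.51 and 1.03 in MCD+AG, a rise of 0.77 ± 0.19 (limma adjusted p = 0.01) that was lost under scaling to the median. In MCD PH it was at 1.61, 1.60, 1.56 and 1.12, a rise of 0.99 ± 0.19 (limma adjusted p = 0.0015). All these calls for Cd3e stood when any 1 liver was left out.

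Cd4, the coreceptor of helper T cells, fell on the deficient diet without surgery by the probe used, but was not called by its other probe. Its probe at chr6:124814711-124814770 (mm9) passed background on each of the 32 arrays. In STD it was at 6.69, 7.17, 6.11 and 6.0, and in MCD at 3.96, 3.89, 3.89 and 3.61, with no overlap. Cd4 fell by 2.65 (SE 0.36; 6.29-fold; limma adjusted p = 8.43e-06), and by 1.84 after normexp. Another probe for Cd4 gave a change of -0.87 in this comparison, which was not called. That probe was well above background on 18 arrays.

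The STD mean was the highest of the 8 for Cd4, and both the agonist and surgery on standard diet came with lower levels. STD+AG stood at 4.77, 5.62, 4.39 and 6.28, overlapping STD at replicate 4, and the change was -1.23 ± 0.36 (limma adjusted p = 0.0389). STD PH stood at 4.85, 5.75, 5.67 and 4.94, below all STD livers, with a change of -1.19 ± 0.36 (limma adjusted p = 0.0269). The Cd4 call with the agonist was lost without STD replicate 1 or 2 or STD+AG replicate 1 or 3 (changes -1.57 to -0.93), and the call with surgery without STD replicate 1 or 2 or STD PH replicate 1 or 4 (changes -1.35 to -0.96). The agonist call for Cd4 was also lost after normexp (-0.79), under scaling to the median (-1.05), without the filter on dim probes, with the mean over its probes (-0.93) and in a fit of only the groups compared. The surgery call for Cd4 was lost after normexp (-0.48), under quantile normalization (-0.90) and in a fit of only the groups compared. The interaction without surgery was 2.15 ± 0.51 (limma adjusted p = 0.00778; 1.14 after normexp, not called), the single one of the 7 called with a positive sign. The other probe for Cd4 gave -0.64 for the agonist, -0.62 for surgery and 0.50 for the interaction, with no call over all probes. Cd8b1, a chain of the coreceptor of cytotoxic T cells, was well above background on 20 arrays and called in none of the tests.

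**Figure D3:**
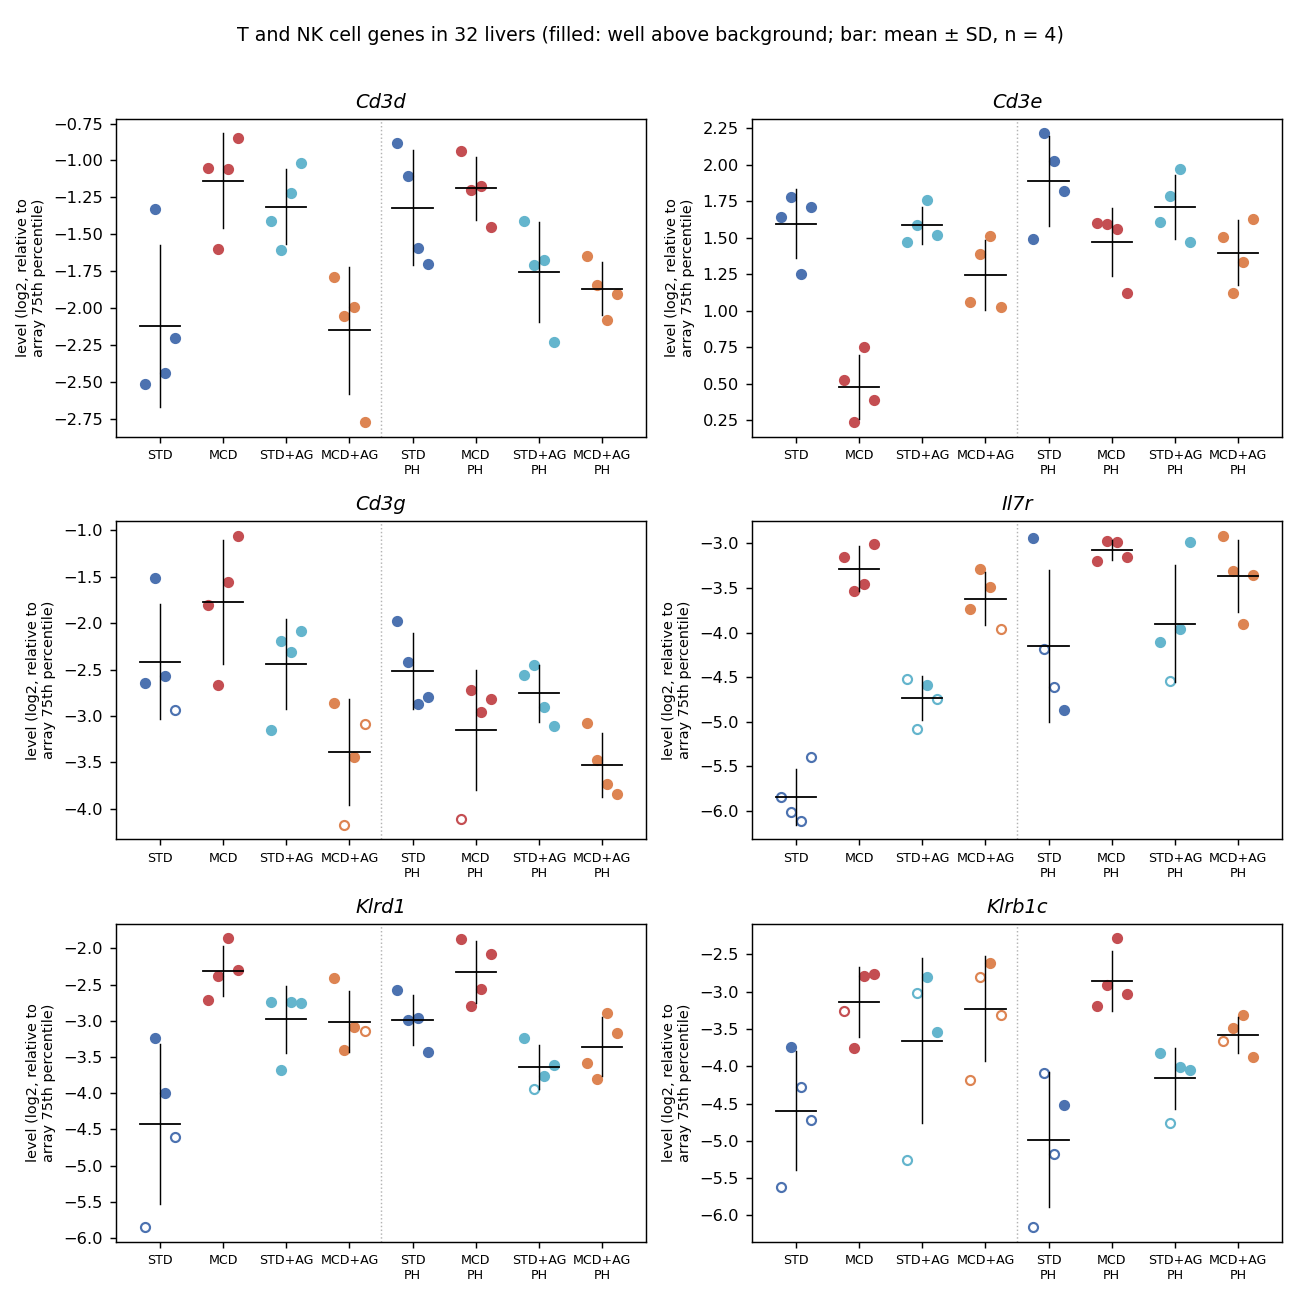
Levels of Cd3d, Cd3e, Cd3g, Il7r, Klrd1 and Klrb1c (log2 signal relative to the array's 75th percentile) in the 4 livers of each group, with bars at the mean ± SD, filled points well above background, and operated groups right of the dotted line. Cd3d averaged -2.12 in STD and -1.14 in MCD while Cd3e averaged 1.60 and 0.48. The 4 STD points of Il7r are all open.

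Among T cell kinases and accessory molecules, Lck was the one called in more than 1 comparison. Lck, the kinase that starts T cell receptor signalling, is read at chr4:129225614-129225673 (mm9). It was at -0.81, -1.0, -1.08 and -1.02 in STD, at -0.16, -0.55, -0.09 and 0.12 in MCD, at 0.14, -0.54, 0.57 and 0.07 in STD+AG, and at 0.29, -0.35, -0.57 and -0.67 in STD PH. The STD livers lay below all livers of these other 3 groups. Lck rose by 0.81 ± 0.21 with the diet (limma adjusted p = 0.00654), by 1.04 ± 0.21 with the agonist (limma adjusted p = 0.00523) and by 0.65 ± 0.21 with surgery (limma adjusted p = 0.0407).

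These 3 comparisons share the STD livers. The surgery call for Lck was lost without STD replicate 2, 3 or 4 or STD PH replicate 1 or 2 (changes 0.45 to 0.77), while the others stood without any 1 liver. After normexp the 3 changes of Lck were 0.45, 0.19 and 0.18, with no call. Its interaction without surgery was -1.34 ± 0.30 (limma adjusted p = 0.0058; -0.70 after normexp, not called).

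Cd6, a surface receptor that tunes T cell activation, rose with the diet by 0.66 ± 0.25 (limma adjusted p = 0.0463; 0.22 after normexp, not called). The probes for Cd6 disagreed, however, since another probe gave -1.09 (adjusted p over all probes 0.00512), and the mean over both was -0.21. The call was lost without STD replicate 1 or 3 or MCD replicate 2, 3 or 4 (changes 0.50 to 0.84). Zap70, the kinase next to Lck in the pathway, the adhesion receptor Cd2, the inhibitory receptor Cd5 and the costimulatory receptor Cd28 were called in none of the 14 tests. Cd5 came closest, with 0.77 ± 0.30 for the diet without surgery (limma adjusted p = 0.0579).

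Il7r, the receptor for the T cell survival factor interleukin 7, was not well above background in any STD liver. Its probe lies at chr15:9435976-9436035 (mm9). The STD values were -5.84, -6.01, -6.11 and -5.40, and in MCD, where all 4 livers were well above background, -3.15, -3.53, -3.46 and -3.0. Only in MCD, MCD PH and MCD+AG PH was Il7r well above background on all 4 arrays. It entered the tests through these groups of the deficient diet alone, so a higher signal there was partly fixed by the filter. Il7r was at least 2.98-fold higher on the deficient diet (measured change 2.56 ± 0.32, limma adjusted p = 2.79e-06). The mean array of MCD was brighter than that of STD, as given above, and after normexp the change was 0.17 and not called.

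With the agonist, the same diet raised Il7r as well. STD+AG stood at -4.52, -5.08, -4.59 and -4.75, with replicate 3 alone well above background, and MCD+AG at -3.74, -3.29, -3.49 and -3.96, with replicate 4 alone not so. The groups did not overlap, and the change was 1.11 ± 0.32 (limma adjusted p = 0.0162). It was 0.28 after normexp, and the Il7r call was lost under scaling to the median and without STD+AG replicate 2 or MCD+AG replicate 2 (changes 1.00 to 1.23, adjusted p up to 0.0557).

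Il7r was also above STD in STD+AG, by at least 1.09-fold (measured 1.11 ± 0.32, limma adjusted p = 0.0352; 0.12 after normexp, not called), and in STD PH, by at least 1.63-fold (measured 1.69 ± 0.32, limma adjusted p = 0.00107). STD PH stood at -2.94, -4.19, -4.61 and -4.86, with replicate 1 the highest. Without STD PH replicate 1 the Il7r change was 1.28 and still called. After normexp, surgery's change was -0.15. The agonist call was lost without STD replicate 1, 2 or 3 or STD+AG replicate 1, 3 or 4 (changes 1.02 to 1.25).

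After surgery Il7r was higher on the deficient diet, with MCD PH at -3.19, -2.97, -2.98 and -3.15. STD PH replicate 1 lay above these livers and the other 3 STD PH livers below them. The change was 1.08 ± 0.32 (limma adjusted p = 0.0258; 0.41 after normexp, not called), lost without STD PH replicate 2, 3 or 4 or MCD PH replicate 2 or 3 (changes 0.84 to 1.48). The interaction of Il7r without surgery was -1.44 ± 0.45 (limma adjusted p = 0.0362), and 0.11 after normexp. Of the 16 omissions of a liver, 10 ended that call (changes -1.59 to -1.33). The diet call after surgery draws on MCD PH and the interaction on MCD. Il7r passed the filter through these groups, so both calls were partly fixed by it.

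Il2rb, the shared chain of the receptors for interleukins 2 and 15 on T and NK cells, stood out after surgery. Its probe lies at chr15:78311109-78311168 (mm9) and passed background on each of the 32 arrays. In MCD PH it was at -0.06, -0.00, -0.78 and -0.74, and in MCD+AG PH at -1.39, -1.96, -1.83 and -1.97. The groups did not overlap, and Il2rb fell by 1.39 (SE 0.30; 2.63-fold; limma adjusted p = 0.0314) with the agonist, or by 0.99 after normexp. The call was lost without MCD PH replicate 1 or 2 or MCD+AG PH replicate 2, 3 or 4 (changes -1.53 to -1.26, adjusted p up to 0.118).

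In STD PH, Il2rb was at -0.85, -0.81, -1.72 and -1.94, so MCD PH lay above it by 0.94 ± 0.30 (limma adjusted p = 0.0381), without overlap. That call was lost without STD PH replicate 3 or 4 or MCD PH replicate 1 or 2 (changes 0.73 to 1.11). Both agonist groups had lower Il2rb when operated. STD+AG, at 0.12, -0.46, -0.26 and -0.61, lay above STD+AG PH, at -1.59, -1.06, -1.64 and -2.36, with a change of -1.36 ± 0.30 (limma adjusted p = 0.00703; -0.56 after normexp, not called). MCD+AG PH lay below MCD+AG by 0.98 (SE 0.30; limma adjusted p = 0.0337; -0.36 after normexp, not called). The latter call for Il2rb was lost in 6 of 8 omissions, those of MCD+AG replicates 1, 3 and 4 and MCD+AG PH replicates 2, 3 and 4, with a measured change between -1.12 and -0.90. Tbx21, the transcription factor T-bet of cytotoxic and helper type 1 cells, was called in none of the tests.

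Of the cytotoxic granule genes, Gzma was called and Gzmb, Prf1 and Nkg7 were not. Gzma encodes granzyme A and is read at chr13:113884035-113884094 (mm9). It was at -1.88, -0.54, -1.71 and -2.17 in STD and at 0.11, -0.90, 0.60 and 0.27 in STD+AG. STD replicate 2 alone lay inside the STD+AG range. Gzma rose by 1.60 ± 0.42 with the agonist on standard diet (limma adjusted p = 0.022; 1.44 after normexp, still called), a call lost without STD replicate 1 or 4 or STD+AG replicate 1 or 3 (changes 1.40 to 1.94, adjusted p up to 0.0818).

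In STD PH, Gzma was at 1.80, -0.45, -0.22 and -0.68, and it rose by 1.69 ± 0.42 against STD (limma adjusted p = 0.00805). Without STD PH replicate 1, the highest liver, the rise was 1.13 and not called (adjusted p = 0.0535). On the deficient diet Gzma was at -1.15, -1.21, -1.33 and -1.03 in MCD+AG and at -1.26, -1.08, -0.52 and -0.35 in MCD, a difference that was not called. The interaction of Gzma without surgery was -1.97 ± 0.59 (limma adjusted p = 0.0295; -1.43 after normexp, not called), and 8 of 16 omissions of a liver ended the call (changes -2.32 to -1.77).

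Gzmb, granzyme B, had a like order of livers without passing. It was at -3.70, -3.72, -3.48 and -3.57 in STD and at -1.87, -2.34, -2.07 and -2.74 in STD+AG, without overlap, and the change was 1.36 (limma adjusted p = 0.0905). Its interaction was -2.01 (limma adjusted p = 0.059). STD PH replicate 1 at -0.25 and STD+AG PH replicate 4 at -1.18 were the highest Gzmb values of their groups.

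Prf1, perforin, passed background on each of the 32 arrays and was called in none of the 14 tests. Nkg7, a granule membrane protein, was not called in any either, but its other probe was, over all tested probes. That probe fell by 2.02 with the deficient diet under the agonist, by 2.50 with the agonist on the deficient diet without surgery and by 1.52 with the agonist on the deficient diet after surgery, where the probe used for Nkg7 gave -0.34, 0.52 and -0.47. It rose by 1.74 with surgery on the deficient diet with the agonist, where the probe used gave -0.24, and its interaction without surgery was -2.44. In MCD+AG that probe was well above background in 1 of 4 livers.

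Both NK receptor genes that could be tested rose with the deficient diet without surgery. Klrd1, the CD94 chain of the NKG2 receptors, is read at chr6:129548612-129548671 (mm9). In STD it was at -5.85, -3.24, -4.0 and -4.61, with replicates 1 and 4 not well above background, and in MCD at -2.71, -2.38, -1.86 and -2.30. The groups did not overlap, and Klrd1 rose by 2.11 ± 0.37 (limma adjusted p = 0.000159), or by 0.34 without a call after normexp.

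STD+AG, at -2.75, -3.68, -2.74 and -2.76, and STD PH, at -2.58, -2.99, -2.97 and -3.43, also had higher Klrd1 than STD. The agonist change was 1.44 ± 0.37 (limma adjusted p = 0.0194) and the surgery change 1.43 ± 0.37 (limma adjusted p = 0.0104). The latter was lost without STD replicate 1 (change 0.96), and the former without STD replicate 1 or STD+AG replicate 1 or 3 (changes 0.97 to 1.84). After normexp they were 0.43 and -0.01, with no call. On the deficient diet the agonist's change of Klrd1 was not called, and the interaction was -2.14 ± 0.52 (limma adjusted p = 0.00947; -0.30 after normexp, not called).

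Klrb1c, the NK1.1 antigen, is read at chr6:128729611-128729670 (mm9) and was well above background on 18 arrays. The STD values were -5.63, -3.75, -4.28 and -4.72, with replicate 2 alone well above background, and the MCD values -3.26, -3.76, -2.78 and -2.76. The change was 1.45 ± 0.46 (limma adjusted p = 0.0205), a call lost without STD replicate 1 or MCD replicate 3 or 4 (changes 1.11 to 1.74) and turned to -0.39 by normexp. After surgery the diet raised Klrb1c as well. STD PH stood at -6.16, -4.09, -5.17 and -4.52 and MCD PH at -3.19, -2.91, -2.28 and -3.03, without overlap. All 4 MCD PH livers but only 1 of 4 STD PH livers were well above background, and Klrb1c entered the tests through MCD PH alone, so a higher signal there was partly fixed by the filter. Klrb1c rose by 2.13 ± 0.46 (limma adjusted p = 0.00299; 0.81 after normexp, still called), and no omission of 1 liver ended the call.

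The 5 B cell genes that could be tested passed the threshold in none of the 14 tests. They were Cd79a and Cd79b, the signalling chains of the B cell receptor, Ms4a1 (CD20), the inhibitory receptor Cd22 and Pou2af1, a coactivator at the octamer motif. Cd79a came closest. It was at -0.07, -1.03, -1.17 and -1.33 in STD and at -1.47, -2.51, -1.94 and -2.27 in MCD, without overlap, and the change was -1.15 ± 0.46 (limma adjusted p = 0.0665). So Igj was higher in MCD than in STD, while none of these 5 genes was called there.

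Ms4a1, read at chr19:11325367-11325426 (mm9) and well above background on 20 arrays, had 1 very low liver in each operated group on standard diet. In STD PH it was at -6.23, -1.61, -1.96 and -2.35, and in STD+AG PH at -3.07, -2.36, -2.30 and -6.61. These were STD PH replicate 1 and STD+AG PH replicate 4, and neither was well above background.

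The same livers were the lowest of their groups for Cd79b, at -1.32 against 0.70, 0.52 and -0.10 in STD PH, and at -2.14 against -0.15, 0.21 and 0.08 in STD+AG PH. For Pou2af1 they were at -2.98 against -0.70, -1.84 and -2.30, and at -3.70 against -1.44, -1.91 and -1.72. For Cd79a they were at -2.58 and -2.72, each again the lowest of its group. Cd22 differed in STD PH, where replicate 4 was the lowest, at -1.74 against -1.28 to -1.19 in the other livers.

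Markers of other cells were high in both livers. The mean of 9 recruited macrophage genes, centred over all arrays, was 3.16 in STD PH replicate 1 against -1.03 to 0.10 in the rest of that group, and 2.45 in STD+AG PH replicate 4 against -0.78 to -0.57. The mean of 4 cholangiocyte genes was 2.06 and 2.05 in these livers. The part of this in the results was not tested, but the comparisons were refitted without both.

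Without these livers, 3 of the 6 calls between STD and STD PH remained, with changes of 1.28 for Il7r, 1.13 for Gzma and 1.29 for Klrd1. Those of Cd3d (0.66), Cd4 (-1.04) and Lck (0.45) were lost. No B cell gene was called without them either. The diet after surgery then also lowered Zap70 (-1.60) and, with the agonist, raised Il7r (0.83).

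**Figure D4:**
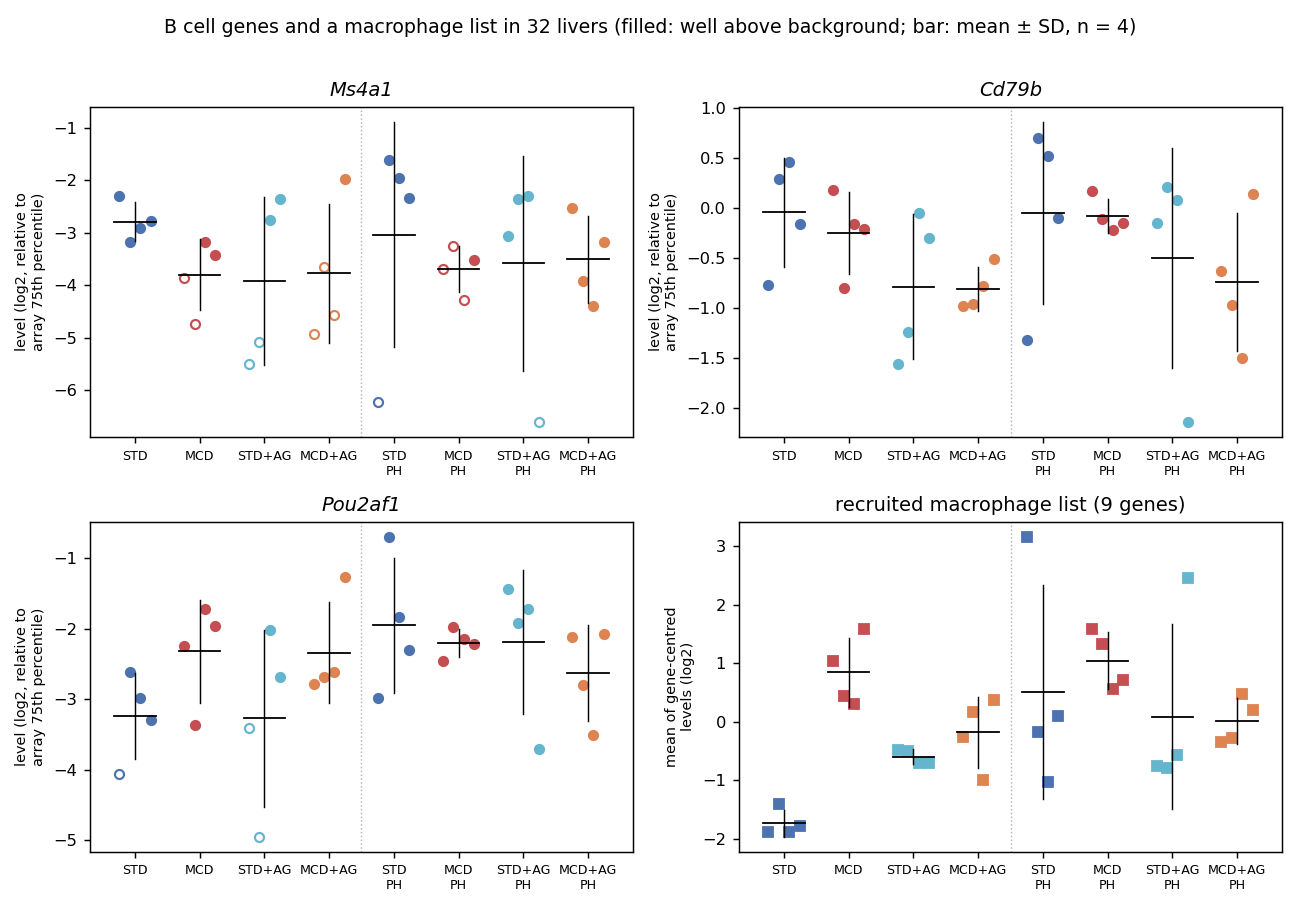
Levels of Ms4a1, Cd79b and Pou2af1 (log2 signal relative to the array's 75th percentile) and the centred mean of 9 recruited macrophage genes in the 4 livers of each group, with bars at the mean ± SD, filled points well above background, and operated groups right of the dotted line. STD PH replicate 1 and STD+AG PH replicate 4 stand lowest in their groups for the B cell genes shown, with Ms4a1 at -6.23 and -6.61, and highest for the macrophage genes, at 3.16 and 2.45.

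Lists of other lymphocyte genes, none of them among the 33, were counted in the same fits. The lists' counts stand beside the shares over all genes given above, which were 10.8% higher and 15% lower for the diet without surgery and 8.97% higher and 4.38% lower for the agonist on the deficient diet, and were not tested against them. Of 25 further T cell genes 12 could be tested, and 5 rose and 0 fell by limma with the deficient diet without surgery (1 lower at an unadjusted p under 0.05), with a median change of 0.95. Among them was Icos, a costimulatory receptor, at 1.28 ± 0.38 (limma adjusted p = 0.0143). After normexp it was 0.03, not called, and the Icos call was also lost without STD replicate 4 or MCD replicate 1 or 4 (changes 0.87 to 1.51). With the agonist on the deficient diet 1 rose and 4 fell. The interaction lowered 5 of the 12, with Icos at -2.95 ± 0.54 (limma adjusted p = 0.00129; -0.47 after normexp, not called).

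Of the B and plasma cell genes under 21 further names, which include older names of the same gene, 15 could be tested. With the deficient diet without surgery 3 rose, among them Cd72, a B cell inhibitory receptor, at 2.23 ± 0.46 (limma adjusted p = 0.000814; 1.18 after normexp, still called). Derl3 and Cr2 fell, Derl3, an endoplasmic reticulum protein of secretory cells, by 2.24 (SE 0.80) and Cr2, a complement receptor, by 1.22 (SE 0.43). Both were lost under median scaling and when single livers were left out, Derl3 in 7 and Cr2 in 4 of the 8 omissions. With the agonist on the deficient diet 4 fell, with Mzb1, a chaperone for antibody secretion, at -1.75 ± 0.44 (limma adjusted p = 0.00961; -0.77 after normexp, not called) and Cd72 at -1.59 ± 0.46 (limma adjusted p = 0.0209; -0.87 after normexp, not called).

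Of 13 further NK and cytotoxic genes 8 could be tested, and 1 rose and 1 fell with the diet without surgery. The one that rose was Klrc1, an NKG2 chain that pairs with Klrd1 (1.80 ± 0.54, limma adjusted p = 0.0145). The Klrc1 call was lost without STD replicate 3 (adjusted p = 0.0585) and after normexp, at 0.07. Of 12 cytokine genes that sustain or activate lymphocytes 5 could be tested, and 1 rose with the diet without surgery, Il15, a growth factor of NK and memory T cells, at 1.52 ± 0.51 (limma adjusted p = 0.0273). The Il15 call was lost without STD replicate 1 or MCD replicate 3 or 4 (changes 1.25 to 1.63), and after normexp the change was -0.10.

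Chemokine and adhesion genes that draw lymphocytes into tissue were counted in the same way. Of 21 tested, 6 rose and 0 fell by limma with the deficient diet without surgery (1 lower at an unadjusted p under 0.05). They included Ccl5, a chemokine that attracts T cells, at 1.77 ± 0.27 (limma adjusted p = 4.22e-05; 1.49 after normexp, still called) and Cxcr3, the receptor for interferon-induced chemokines, at 1.48 ± 0.29 (limma adjusted p = 0.000508; 0.56 after normexp, not called). With the agonist on the deficient diet 1 rose and 4 fell, with Cxcr3 at -1.24 ± 0.29 (limma adjusted p = 0.00614; -0.38 after normexp, not called). After surgery on the deficient diet the agonist lowered 1 of the 21, Cxcr3, at -1.34 ± 0.29 (limma adjusted p = 0.0314), and its call was lost without MCD PH replicate 1 or 2 or MCD+AG PH replicate 1, 2 or 3 (changes -1.42 to -1.27).

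General leukocyte and macrophage markers moved beside the lymphocyte genes. Of 13 pan-leukocyte genes 8 rose with the diet without surgery, and their centred mean was -1.12 to -0.64 in STD and -0.32 to 0.63 in MCD. With the agonist on the deficient diet 4 of the 13 fell, and MCD+AG lay at -1.11 to -0.57. Of 7 tested Kupffer cell genes 4 rose with the diet, 5 rose with the agonist on standard diet and 5 fell with it on the deficient diet, with means of -1.93 to -0.98 in STD, -0.92 to 0.85 in MCD, 0.01 to 0.55 in STD+AG and -1.71 to -0.85 in MCD+AG. With the diet under the agonist 5 of the 7 fell. With surgery on standard diet all 7 rose (changes 1.30 to 2.26), as did 8 of the 13 pan-leukocyte and 7 of 9 recruited macrophage genes, where 5 lymphocyte genes were higher. As given above, STD PH replicate 1 stood far above the rest of its group for the recruited macrophage genes. With the diet after surgery 5 of 10 neutrophil genes rose. The MCD and STD+AG arrays did not share a slide. The part of these cells in the changes of the lymphocyte genes was not tested. Among all genes 10.8% were called higher with the diet without surgery and 3.34% with the agonist on standard diet. Surgery on standard diet called 6.24% higher and the diet after surgery 5.61%. The agonist on the deficient diet called 4.38% lower and the diet under the agonist 6.95%. The list counts were not tested against these shares, nor recomputed after normexp or without single livers.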

How the data were processed

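Total RNA of 32 livers was labelled with Cy3 and hybridised to one-colour Agilent arrays, per the labels' protocols. The deposited intensity values were extracted with Feature Extraction 10.7.3.1 on an mm9 design, per the file headers. The submitters' processing notes name limma without a version, and the deposited processed table holds log2 values. In 16 of its 32 columns the values matched an array of another group better (rank correlation 0.973 to 0.996) than the array named (0.868 to 0.939), so it served only as an alternative.

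Here the processed signal was scaled to each array's 75th percentile and taken to log2, with outlier spots left out and spots of a probe averaged. A probe was tested if 1 group or more had it well above background on each of its 4 arrays, and a gene with several tested probes was read by the one with the highest mean. All 8 groups entered 1 limma fit (limma 3.58.1, R 4.3.3; checked on simulated data), with Benjamini-Hochberg adjustment over 21708 genes. The number of arrays limits the precision.

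The genes and lists were chosen with earlier results of these data known. Named genes were the 33, up to 4 genes of a list with the smallest adjusted p in a comparison, and Scd1 and Mat2a. The values of some list genes are not reported here, though the counts include them. Alternatives were normexp with an offset of 50, scaling to the median, tests without the filter for dim probes, quantile normalization, means over a gene's probes, fits of only the groups compared, the processed table, a replicate block and leaving out each liver. Leaving out both livers low in most of the tested B cell genes was added after seeing the data. Replicate numbers did not pair the livers. Sequences are RefSeq's, and gene symbols are those of the array design.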

Additional observations from a re-analysis of the deposited data

Results flagged for a closer look

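Within groups of 4 livers, 17 of the 224 sets of values of a tested gene in a group had 1 liver far from the others, which is 7.59% where chance flags about 5%. The figure given for each is the gap of that liver to its nearest neighbour as a share of the group's range. STD+AG PH replicate 4 was the lowest for 5 genes, with 0.839 for Cd2, 0.876 for Cd5, 0.839 for Cd79a, 0.848 for Cd79b and 0.862 for Igj. STD PH replicate 1 was the lowest for Zap70 (0.842) and Ms4a1 (0.841). These are the same livers in which macrophage and cholangiocyte markers were high, and the part of those cells was not tested. Each of the other 10 livers appeared once. The low ones were MCD PH replicate 4 for Cd3e (0.912), MCD replicate 1 for Cd6 (0.853), STD+AG replicate 1 for Prf1 (0.893), STD+AG replicate 2 for Klrd1 (0.988), STD PH replicate 4 for Cd22 (0.837) and STD+AG replicate 3 for Tnfrsf17 (0.961). The high ones were MCD+AG PH replicate 2 for Tbx21 (0.971), MCD+AG PH replicate 1 for Prf1 (0.858), STD replicate 1 for Nkg7 (0.871) and MCD+AG replicate 4 for Pou2af1 (0.888).

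The agonist's change without surgery differed between the diets, by the interaction test, for 7 of the 28 genes. The difference, deficient minus standard diet, was -1.82 for Cd3d, -1.60 for Cd3g, -1.34 for Lck, -1.44 for Il7r, -1.97 for Gzma, -2.14 for Klrd1 and 2.15 for Cd4. The other probe for Cd4 gave 0.50, not called. An additive difference between slides cancels in this contrast. After normexp it was called for 0 of the 28, with -0.88 for Cd3d and 0.11 for Il7r.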

How the results depend on the processing

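Of the changes of single genes recomputed under every alternative, 909 kept their side of the threshold, 279 lost it and 17 turned direction. Where a value below moved, the cause was not tested, except that fewer arrays or genes enter some fits. Counts are of called genes among the 28.

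With normexp the counts were 0 for the diet under the agonist, 2 for the agonist on standard diet, 0 for the interaction without surgery, 4 for surgery on standard diet with the agonist and 10 for it on the deficient diet with the agonist. Klrb1c and Il15 under the diet became -0.39 and -0.10, and Il7r and Klrd1 under surgery on standard diet -0.15 and -0.0094, while the Il7r interaction became 0.11. Median scaling gave 1 for surgery on the deficient diet with the agonist, and quantile normalization 1 there and 4 on the deficient diet alone. Without a filter on dim probes the counts were 1 (diet under the agonist), 0 (agonist on the deficient diet after surgery), 3 (agonist on standard diet) and 1 (diet after surgery). The mean over probes gave 4 for the diet under the agonist and -0.21 for Cd6 under the diet. Fits of only the groups compared gave 1 (agonist on the deficient diet after surgery), 1 (agonist on standard diet), 3 (agonist on the deficient diet), 1 (diet after surgery), 1 (surgery on standard diet) and 1 (surgery on the deficient diet with the agonist). Without the 2 livers low in most of the tested B cell genes, surgery on standard diet gave 3.

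The processed table, with columns of 2 group pairs matching each other's arrays, gave 2 (diet), 6 (diet under the agonist), 8 (agonist on standard diet), 2 (agonist on the deficient diet), 3 (interaction), 2 and 1 (agonist after surgery on standard and deficient diet), and 0 and 0 (diet after surgery without and with agonist). It turned Igj (-1.56), Derl3 (0.56), Cr2 (1.29) Ccl5 (-0.0035) and Il15 (-0.073) under the diet, Il7r (-0.28) and Tcf7 (-0.38) for the diet under the agonist, Cd3e (-0.56) and Igj (0.37) for the agonist on the deficient diet, and Il2rb for the agonist (0.026) and the diet (-0.075) after surgery.

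With 1 liver left out the counts ranged from 7 to 10 (diet), 1 to 3 (diet under the agonist), 1 to 6 (agonist on standard diet), 4 to 6 (agonist on the deficient diet), 4 to 8 (interaction), 0 to 0 (agonist on standard diet after surgery), 0 to 3 (the same on the deficient diet), 1 to 4 and 1 to 2 (diet after surgery without and with agonist), 0 to 0 (interaction after surgery), and 2 to 7, 1 to 3, 2 to 3 and 0 to 2 for surgery on standard diet, deficient diet, and each with the agonist. Same-numbered livers correlated between -0.21 and 0.44 in their deviations, so the numbers are only shared labels. With a replicate block the diet called 9, surgery on standard diet 8 and the interaction 7, with Cd3g no longer called in the latter.

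Scaling to the median moved the median of all genes from -0.13 to 0.24 (diet), -0.01 to 0.17 (agonist on standard diet), 0.15 to -0.21 (agonist on the deficient diet) and 0.18 to -0.36 (interaction). Small changes near these shifts have no settled direction. Dim probes limit Tnfrsf17, Il7r, Klrb1c and Ms4a1 most.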
